A study of Mus musculus with 54 samples.

Results

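The RNA of 8 genes known for their use in B cells, Ms4a1, Cd79a, Cd79b, Cd22, Pax5, Cd180, Ly6d and Syk, was followed in purified naive CD4+ T cells before and after stimulation. The genes were listed by name, not picked by a threshold on their values, but with earlier results of these data known. All 8 were found among the 55385 genes of both count tables and passed the filter of at least 1 read. The study asked how the transcriptional response of CD4+ T cells to anti-CD3 and anti-CD28 depends on CD5, CD6 and LAT, and the 54 libraries come from 2 experiments with 3 libraries per genotype and time. In the first, here called the enriched cells, naive CD4+ T cells of WT, Cd5-/-, Cd6-/- and Cd5-/-Cd6-/- mice were isolated with a magnetic kit (36 libraries). In the second, here called the sorted cells, a cell sorter was used to collect WT (hDTR+) and Lat-/- (hDTR-) naive CD4+ T cells of Lat fl-dtr maT-Cre mice, in which a Cre active in mature T cells deletes a Lat allele that carries the human diphtheria toxin receptor (18 libraries).

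All mice were on the C57BL/6 background and 8 to 10 weeks old, and the cells came from lymph nodes and spleens. Cells were lysed right after purification (0 h) or stimulated for 4 h or 20 h with plate-bound anti-CD3 at 3 µg/ml and anti-CD28 at 1 µg/ml. Cells cultured without stimulation were not analysed here, so the effects of culture and of stimulation cannot be told apart. The labels number the libraries of a group 1 to 3, and the paper calls the samples of each condition independent in its figure of 0 h and 20 h. Neither says whether they came from separate mice. The p-values thus measure the spread between these libraries, which may be technical.

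B cells recognize antigen through a membrane immunoglobulin bound to the signaling chains CD79a and CD79b, whose phosphorylated tails recruit the kinase SYK. CD22 restrains this signal, MS4A1 (CD20) is a surface protein of B cells from their precursors to the mature stage, and PAX5 is the transcription factor that keeps a B cell to its lineage. CD180 is a toll-like receptor relative of B cells and some myeloid cells, and LY6D marks early B lineage commitment and mature B cells. Lymph nodes and spleens are rich in B cells, and naive CD4+ T cells are not known to use most of these genes, which is why their reads in CD4+ T cell libraries are of interest for purity. In bulk RNA, fewer cells of a type and less RNA per cell cannot be told apart.

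Library totals ran from 20554354 to 45222554 counts in the enriched cells and from 17784644 to 28501095 in the sorted cells. A gene with no read in a library could still have been present at up to 3 counts, which is 0.0663 to 0.146 CPM, counts scaled to the library total, in the enriched cells and 0.105 to 0.169 CPM in the sorted cells. Intervals and floors given here cover counting error only. In the Lat-/- cells, Lat was at 5.45 to 20.3 CPM against 97.1 to 312.7 CPM in the sorted WT cells. In 2 of the 54 libraries the deleted gene went against the label. The 0 h library 2 labelled Cd5-/- held 822 CPM of Cd5 and 375 CPM of Cd6, against 134.9 and 107 CPM of Cd5 and 1362 and 1104 CPM of Cd6 in the other 0 h libraries of that label. The 0 h library 2 labelled Cd6-/- held 194 CPM of Cd5 and 1350 CPM of Cd6, against 762 and 771 CPM of Cd5 and 368 and 270 CPM of Cd6 in the others. The 2 libraries thus each held Cd5 and Cd6 near the levels of the other label, and an exchange was not tested. Both were kept under their labels, and the counts of members called in Cd5-/- and Cd6-/- cells at 4 h against 0 h and in Cd5-/- against WT cells are also given without them.

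The 8 genes lie on 6 chromosomes of GRCm38. Cd79a (chr7:24897381-24902197) and Cd22 (chr7:30865402-30880342) share a chromosome, as do Syk (chr13:52583173-52648792) and Cd180 (chr13:102693558-102739629), while Cd79b (chr11:106311341-106314762), Pax5 (chr4:44524757-44710487) and Ly6d (chr15:74762056-74763620) stand alone. Ms4a1 (chr19:11249675-11266241) lies 511 kb from Cd5 and 420 kb from Cd6 on chromosome 19, where the deletions of the knockout mice were made. Exons of Cd180 overlap those of 1 unnamed gene on the opposite strand. Those of Pax5 overlap 2 genes on the opposite strand with 69 reads in all, and those of Cd22 overlap Gm29439, which had 0 reads. How the counting used strand is not given in the sources used here. The unnamed gene at Cd180 had 8.71 to 17.8 CPM in the sorted cells at 0 h, where Cd180 had 1 read in all 6 libraries together.

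The promoters of members that move together are shown where a motif of a B lineage factor was found in the 250 bases before the transcription start, from RefSeq sequences on GRCm38.p6 that matched 5 of the 8 members in 7 windows. Capitals mark the motif, and each line gives 30 bases, 5′ to 3′ on the strand of the gene. Both strands were searched for the EBF motif, TCCC and GGGA with 2 bases between them, the ETS motif AGGAAGT, the E box CAGGTG, which reads CACCTG on the other strand, and the octamer ATGCAAAT.
Cd22, EBF motif (chr7:30879058-30879087, - strand): tcctgcaagaTCCCTGGGGActcacacaga
Cd22, E box (chr7:30879249-30879278, - strand): ccctaCACCTGttcctggtcacccagaagt
Cd79a, ETS motif (chr7:24897430-24897459, + strand): gcacggctgaacAGGAAGTgaggcggagtt
Cd79a, E box (chr7:24897331-24897360, + strand): ttgtggccagccCAGGTGcagggcagttcc
Syk, E box (chr13:52583225-52583254, + strand): ggaggacgcggcCACCTGcccaggtaggag
Syk, E box at another start (chr13:52596726-52596755, + strand): ctcctccactggCAGGTGtttgtttgggat

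Of 32851 mouse promoter windows of this length, 0.779% held the EBF motif, 7.69% the ETS motif and 17.2% the E box. The octamer was in 1.6% of all windows and in none of the 7 windows of the members, which says only that these letters are not in these bases. The EBF motif of Cd22 began 49 bases and the ETS motif of Cd79a 55 bases before the start of its RefSeq transcript, and these starts lie inside the gene extents given above, not at their ends. A motif in a window is a match of letters and was not tested as a site.

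At 0 h, all 8 genes were read in every library of the enriched cells. Cd79b, the chain of the antigen receptor complex that pairs with Cd79a, had the highest median of the 8, with 17.9 CPM in the lowest of the 12 libraries, 34.8 in the median and 168 in the highest. Cd79a had 15.0, 30.7 and 125 CPM in the same order. Syk, the kinase that these chains recruit, had 9.02, 23.5 and 64.4 CPM, and the inhibitory receptor Cd22 had 5.25, 12.8 and 47.7 CPM.

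The other 4 members were also read in all 12 libraries. Ms4a1, the gene of CD20, had 16.5 CPM in the lowest library, 31.1 in the median and 147 in the highest. Ly6d had 11.5, 23.1 and 114 CPM. The lineage factor Pax5 had 8.71, 19.5 and 60.3 CPM, and Cd180 had 3.43, 7.21 and 21.6 CPM, the lowest of the 8. For all 8 members the highest of the 12 libraries was WT library 3.

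Compared between genes per kilobase of exon, the order at 0 h changed, since Ly6d is short. Ly6d had a median level of 31.1 CPM per kb, Cd79b 24.3 and Cd79a 21.1, and then came a step down to 5.03 for Ms4a1. Each of Ly6d, Cd79b, Cd79a and Ms4a1 was above the next gene in at least 11 of 12 libraries. Cd22 at 2.53, Syk at 2.51, Pax5 at 2.21 and Cd180 at 1.6 CPM per kb followed. Cd22 was above Syk, and Syk above Pax5, in 9 of 12 libraries, so these neighbors did not differ beyond their spread.

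**Figure D1:**
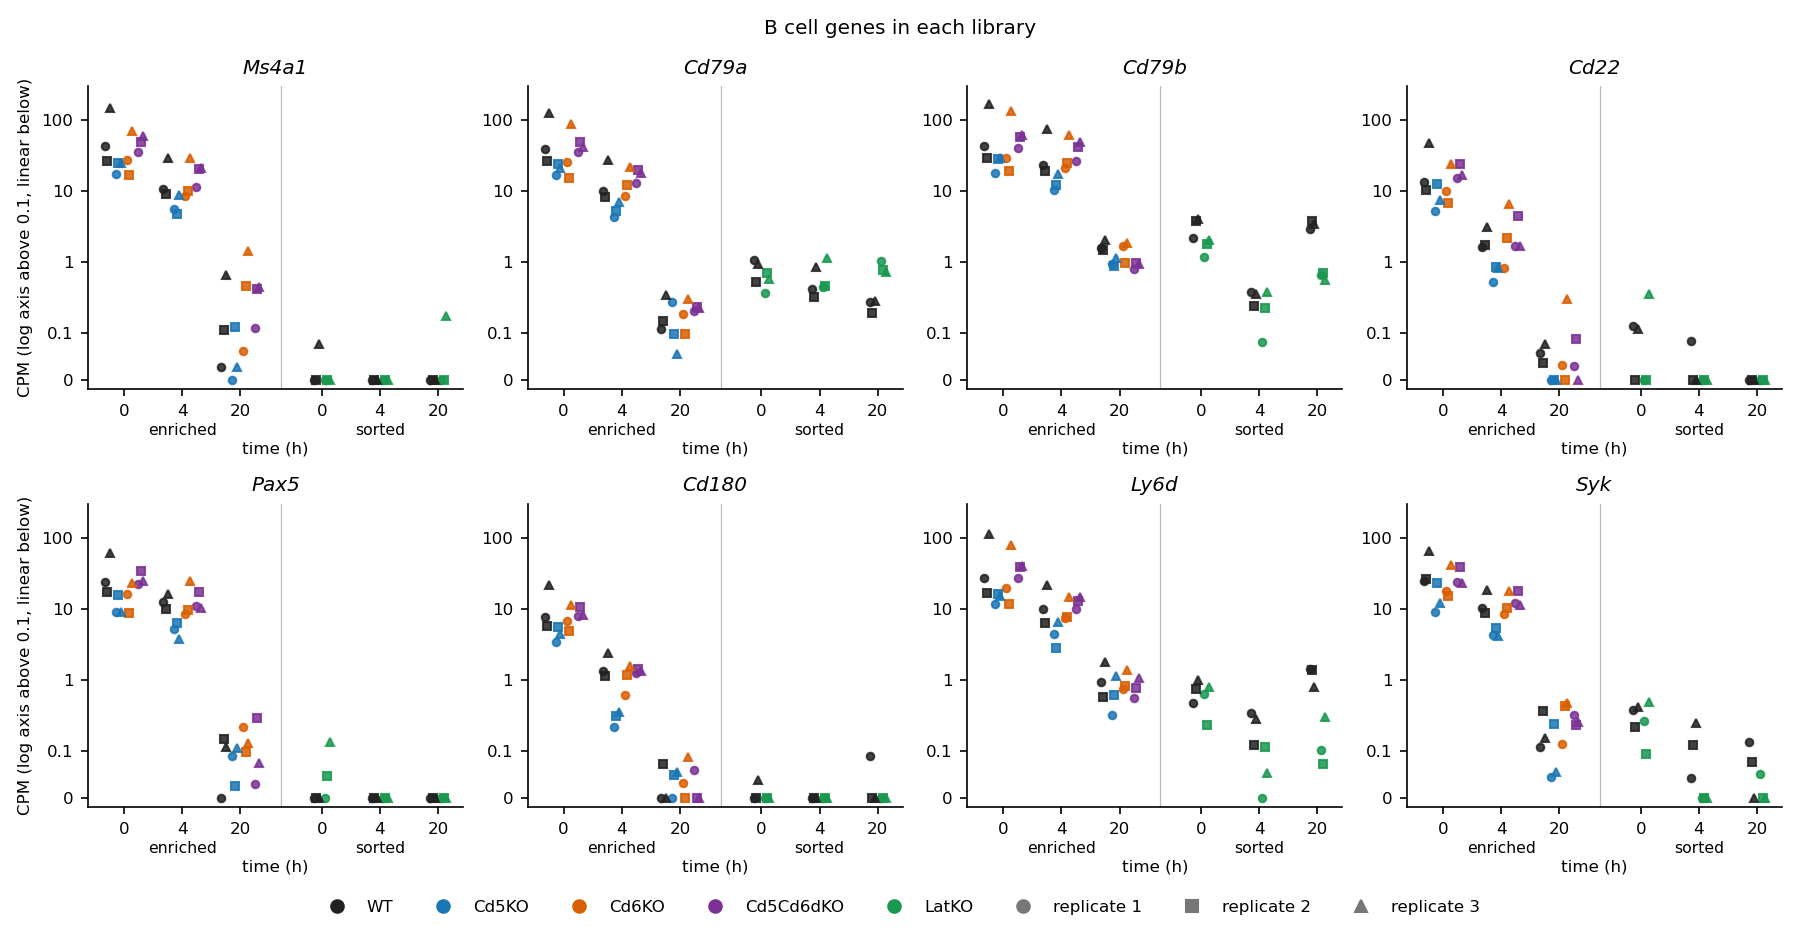
Level of each of the 8 B cell genes in every library (CPM of the library total, on an axis that is linear near 0 and logarithmic above), by time in the enriched and the sorted cells, with 1 point per library. The enriched cells at 0 h and 4 h lie above all sorted cells for every gene, and at 20 h the points of both experiments overlap.

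The levels of the 8 genes varied together across the 12 enriched libraries of 0 h. Summed over the 8, their level ran from 90.3 to 748 CPM with a median of 182. WT libraries 1 to 3 had 220, 157 and 748 CPM, and Cd6-/- libraries 152, 96.9 and 469 CPM, so that library 3 was 4.77 times the lowest WT library and 4.84 times the lowest Cd6-/- library, which is the doubted one. The other genotypes were tighter, with 206, 301 and 274 CPM in Cd5-/-Cd6-/- and 90.3, 149 and 122 CPM in Cd5-/- cells. The 149 CPM belongs to the doubted library labelled Cd5-/-. Library 3 was also the highest of its group at 4 h and 20 h in WT and Cd6-/- cells.

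Pearson correlations of log2 CPM between pairs of members over these 12 libraries were 0.861 to 0.994, a description of libraries that share their depth and their purification. Ranked over the 10880 genes whose counts there averaged 50 or more, the 10 most like the mean of the members included Igkj2 (r = 0.992), Ighd (0.990), Iglc2 (0.988), Kmo (0.988), Spib (0.987), Blnk (0.984), H2-Eb2 (0.984), Iglc3 (0.983) and Fcer2a (0.983). Igkj2, Ighd, Iglc2 and Iglc3 are immunoglobulin genes, and Blnk encodes the adaptor below SYK. Immunoglobulin constant and joining genes can share reads, so their single values are uncertain.

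Markers of other cells were also summed at 0 h in both experiments. The 6 MHC class II genes, of B cells and other antigen-presenting cells, summed to 304 to 2298 CPM in the enriched cells and to 41.0 to 75.7 CPM in the sorted cells, where H2-DMa alone made up 38.9 to 65.9 CPM. Red cell globins summed to 288 to 5125 CPM in the enriched cells and to 0 to 1.2 CPM in the sorted cells. The 12 myeloid genes summed to 129 to 779 against 75.7 to 135.5 CPM, and in the sorted cells 4 of the 12 (Cd14, Clec7a, S100a8 and S100a9) had no read and Cst3 made up 64.6 to 124 CPM. The part of these cells in the values of Syk and Cd180, which myeloid cells also use, was not tested.

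T cell identity genes overlapped between the experiments, and their level was far above that of the B cell genes in each library. The sum of 8 such genes was 7277 to 8844 CPM in the enriched and 7891 to 10037 CPM in the sorted cells at 0 h, so the markers of the labelled cell type were present in both. In WT cells, 0 of these 8 genes passed the test between the experiments at any time by edgeR's quasi-likelihood test.

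**Figure D2:**
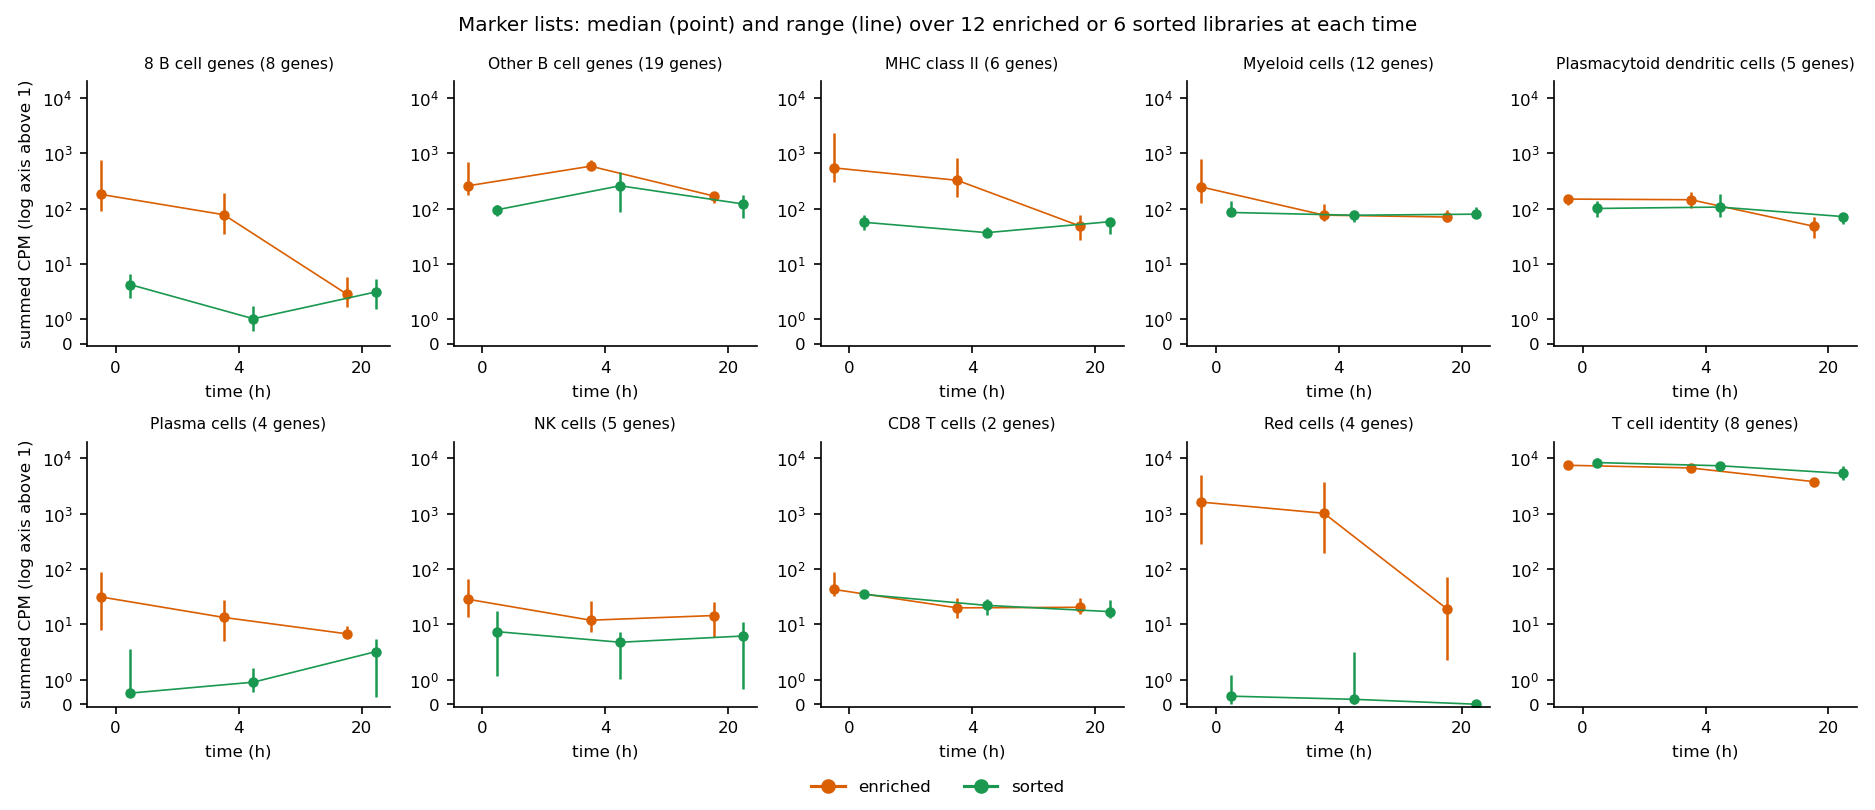
Summed level (CPM of the library total, on an axis that is logarithmic above 1) of the B cell genes and of lists of markers of other cells at 0 h, 4 h and 20 h, with the median as a point and the range as a line over 12 enriched or 6 sorted libraries. B cell genes, MHC class II and red cell genes stand apart between the experiments at 0 h, while T cell identity genes overlap.

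At 4 h most of the 8 genes were lower than at 0 h in the enriched cells, by different amounts. Averaged over the 4 genotypes, 6 of 8 members passed the test as lower at 4 h than at 0 h, where a call needed a fold change over 2 and an adjusted p under 0.05 in edgeR's quasi-likelihood test. Of all 32290 genes tested, 15.4% were called lower. The median log2 fold change of the 8 was -1.48, and that of all genes was -0.08.

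The inhibitory receptor and the toll-like receptor relative fell the most. Cd180 went from 3.43 to 21.6 CPM at 0 h to 0.217 to 2.38 CPM at 4 h, and it was the 1 member of 8 whose 12 libraries of 4 h all lay below its 12 libraries of 0 h. Its log2 fold change was -2.87 (SE 0.20, adjusted p = 4.67e-22). Cd22 went from 5.25 to 47.7 CPM to 0.515 to 6.50 CPM, with the highest library of 4 h above the lowest of 0 h, and its log2 fold change was -2.77 (SE 0.23, adjusted p = 1.99e-18). What was left at 4 h, as the mean over the genotypes, was 12.4% of the 0 h level for Cd180 and 13.8% for Cd22.

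Ms4a1, Cd79a, Ly6d and Syk fell less. Ms4a1 had a median of 10.3 CPM at 4 h (4.69 to 29.2) and fell by 1.45 on the log2 scale, Cd79a had 11.1 CPM (4.25 to 26.8) and fell by 1.52, and Ly6d had 8.70 CPM (2.83 to 21.3) and fell by 1.57. The percentages left were 32.6% for Ms4a1, 30.8% for Cd79a and 29.4% for Ly6d. Syk, at 10.2 CPM (4.14 to 18.3), fell by 1.12 on the log2 scale, and 40.2% was left.

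Pax5 and Cd79b did not reach a fold change of 2. Pax5 had a median of 10.1 CPM at 4 h with a range of 3.78 to 24.9, a log2 change of -0.73 (SE 0.16, adjusted p = 5.09e-05) and 54.6% of its level left. Cd79b had 23.6 CPM with a range of 10.2 to 74.6, a log2 change of -0.59 (SE 0.19, adjusted p = 0.00826) and 58.2% left. Both had adjusted p under 0.05 by edgeR's quasi-likelihood test but stayed under the fold threshold, and Cd79b and its partner Cd79a, whose products work as a pair, thus kept unequal parts of their levels.

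The makeup of the B cell RNA shifted accordingly within each library. Cd79b made up 18.4% to 28.2% of the summed level of the 8 in the 12 libraries of 0 h and 29.1% to 38.9% in those of 4 h, with no overlap. Cd22 made up 5.02% to 8.24% and then 1.30% to 3.66%, and Cd180 2.38% to 5.04% and then 0.627% to 1.74%, again with no overlap. In each of the 4 genotypes Cd22 and Cd180 were the 2 members with the least left, and Cd79b or Pax5 had the most left. These shares do not depend on how libraries were scaled.

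The counts of calls at 4 h were taken in each genotype, and the 4 h responses were not tested against each other between genotypes. In WT cells 7 of 8 members were called lower at 4 h (11.1% of all genes), in Cd5-/- mice 6 (11.3%), in Cd6-/- mice 5 (10.2%) and in Cd5-/-Cd6-/- mice 5 (9.66%). With all libraries Cd79b was not called in any genotype, with log2 fold changes of -0.84 in WT and -0.22 in Cd5-/-Cd6-/- cells. Pax5 was called in WT cells with -1.19, and it had 0.00 in Cd6-/- cells (SE 0.31), or -0.31 without the doubted libraries. Without them the count in Cd6-/- cells was 7, with Cd79b and Syk added, and that in Cd5-/- cells was again 6. In Cd5-/-Cd6-/- cells the count was 2, Cd22 and Cd180, with DESeq2 and with edgeR's filter on low counts, and in Cd6-/- cells it was 3 without library 3 of every group.

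By 20 h the B cell genes made up a very small part of the library totals. Since these levels are relative, a loss of B cell RNA and a rise of other RNA cannot be told apart. All 8 members were called lower than at 0 h in the mean of the 4 genotypes, where 23.9% of all genes were called lower, and all 8 were called lower in each genotype alone, beside 17.3% of all genes in WT, 17.5% in Cd5-/-, 16.8% of them in Cd6-/- and 18% in Cd5-/-Cd6-/- cells. Every one of the 12 libraries of 20 h lay below every library of 0 h and of 4 h for all 8 members. For this and the other statements on libraries without overlap, the share over all genes is not given here. The summed level fell from 90.3 to 748 CPM at 0 h to 34.6 to 192 CPM at 4 h and 1.65 to 5.91 CPM at 20 h, which left 37.9% at 4 h (29.7% to 44.4% between genotypes) and 1.34% at 20 h (0.965% to 1.71%).

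**Figure D3:**
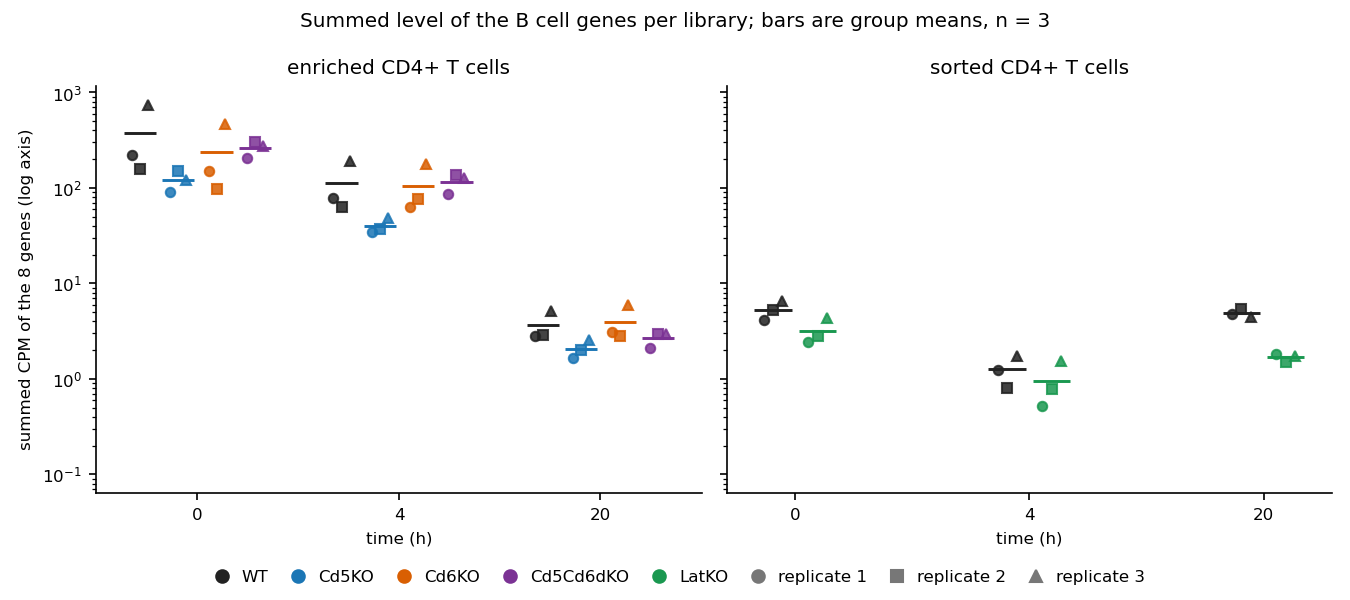
Summed level of the 8 B cell genes (CPM of the library total, logarithmic axis) by time and genotype, with 1 point per library and the mean of 3 libraries as a bar. The enriched cells run from 90.3 to 748 CPM at 0 h to 1.65 to 5.91 CPM at 20 h, and the sorted cells stay between 0.516 and 6.58 CPM throughout.

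By pooled reads Cd22, Cd180 and Cd79a had the least left, and Ms4a1 kept under 1% as well. The intervals of Cd22, Cd180 and Cd79a overlap each other and that of Pax5, so an order among these genes is not shown. Cd22 had 17 reads in all 12 libraries of 20 h after 5890 at 0 h, which is 0.286% of the level (95% exact interval 0.166% to 0.458%), and in Cd5-/- cells it had no read in 3 libraries after 793 at 0 h, at least 266-fold lower. Cd180 had 11 reads after 3028, or 0.360% (0.179% to 0.644%), and no library held over 2 of them. Cd79a went from 15387 reads to 66, or 0.425% (0.328% to 0.541%), and Ms4a1 from 16876 to 106, or 0.622% (0.509% to 0.753%). The fitted log2 fold changes were -7.76 for Cd180 (SE 0.31), -7.62 for Cd79a (SE 0.27) and -7.33 for Ms4a1 (SE 0.31), and for Cd22 the value was -8.01 with its Cd5-/- term set to the bound.

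The lineage factor and the kinase, which had kept more at 4 h, also fell to under 1%. Pax5 had 40 reads at 20 h after 8148, or 0.486% (0.347% to 0.662%), with a log2 change of -7.42 (SE 0.25, adjusted p = 4.75e-41). Syk had 85 reads after 9611, or 0.876% (0.699% to 1.08%), with -6.66 (SE 0.22, adjusted p = 9.49e-42). Between 4 h and 20 h alone, Pax5 fell by 6.68 on the log2 scale, the steepest of the 8 in that interval.

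Cd79b and Ly6d kept the most. Cd79b had 0.789 to 2.05 CPM at 20 h, 459 reads after 19888 or 2.28% (2.08% to 2.51%), with a log2 change of -5.23 (SE 0.24, adjusted p = 2.14e-32). Ly6d had 0.312 to 1.78 CPM, 325 reads after 12758 or 2.52% (2.25% to 2.82%), with -5.02 (SE 0.25, adjusted p = 9.53e-31). These 2 genes made up most of what remained, with median shares of the summed level of 41.5% for Cd79b and 27.4% for Ly6d at 20 h against 19.6% and 12.8% at 0 h. They are also the 2 members with the highest level in the sorted WT cells at 20 h.

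Against 4 h, all 8 members were called lower at 20 h (18.7% of all genes), with log2 fold changes from -3.45 for Ly6d to -6.68 for Pax5 and a median of -5.71, beside -0.13 for all genes. Against 0 h the median of the 8 was -7.37, beside -0.31 for all genes, and the same -7.37 with Cd22 at its bound. T cell identity genes fell over the same time from 7277 to 8844 CPM to 3698 to 4144 CPM, and 4 of 8 were called lower.

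**Figure D4:**
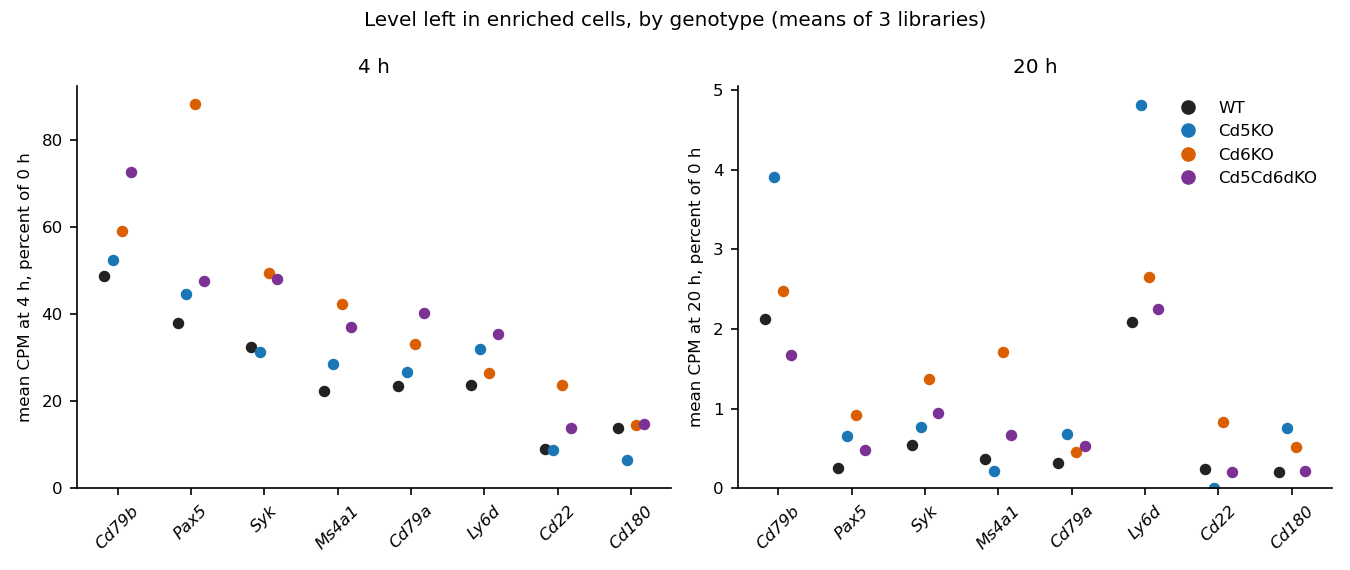
Percent of the 0 h level (ratio of group means in CPM of 3 libraries, linear axes of different height) left at 4 h and 20 h for each B cell gene in the enriched cells, with 1 point per genotype. At 4 h the genes spread from 6.52% to 88.3%, with Cd180 and Cd22 lowest, and at 20 h none kept over 4.81%.

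Other genes of the B cell program, from a list of 20 of which 19 were matched, moved in the same direction for the most part. Of the 19, 11 were called lower and 2 higher at 4 h, beside 15.4% of all genes called lower. At 20 h against 0 h, 15 were called lower and 2 higher, beside 23.9% of all genes called lower. At 20 h against 4 h, 15 were called lower and none higher, beside 18.7% of all genes called lower. For these contrasts, the share of all genes called higher is not given here. The 4 with the highest level at 0 h were Ralgps2, Pou2af1, Cd72 and Spib, and only Spib among these 4 was near 0 in the sorted cells. Spib, a transcription factor of B cells and plasmacytoid dendritic cells, fell from 8.91 to 87.4 CPM at 0 h to 0.124 to 0.777 CPM at 20 h. The sorted cells held 0 to 0.0462 CPM of it at 0 h and 0 to 0.558 CPM at 20 h. Its medians at 20 h were 0.324 CPM in the enriched and 0.313 CPM in the sorted cells.

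The other 3 of these 4 were read at 11.0 CPM or more in every sorted library of 0 h. Ralgps2 had 52.5 to 71.4 CPM in the enriched and 38.5 to 56.3 CPM in the sorted cells at 0 h, and Cd72 15.0 to 34.9 and 15.3 to 23.2 CPM. Pou2af1, the coactivator of the octamer factors, rose from 23.8 to 67.9 CPM to 324 to 536 CPM at 4 h in the enriched cells, and its range in the sorted cells went from 11.0 to 17.6 CPM to 35.2 to 425 CPM. Between the experiments, 17 of the 19 genes were called higher in the enriched WT cells at 0 h, beside 4.49% of all genes. At 4 h the count was 16 (3.02% of all genes), and at 20 h it was 1, Fcer2a (0.432%). Ralgps2 and Cd72 were the 2 not called at 0 h.

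Fcer2a, the gene of the low-affinity IgE receptor CD23, was the other gene called higher at 4 h. It is named here because it was 1 of only 2 so called, after its values were seen. It went from 6.52 to 43.1 CPM at 0 h to 20.5 to 72.3 CPM at 4 h, a log2 change of 1.75 (SE 0.17, adjusted p = 2.76e-15), and then to 0.0814 to 1.17 CPM at 20 h. In the sorted cells it had 4, 2 and 0 reads over the 6 libraries of 0 h, 4 h and 20 h. Fcer2a was also among the 10 genes most like the members at 0 h, so a gene that tracked them before stimulation moved against them at 4 h and with them by 20 h. The second gene that was higher at 20 h beside Pou2af1 was Fcrl1, which had 14.1 to 42.3 CPM in the enriched and 0.902 to 43.3 CPM in the sorted cells at that time.

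Lists of markers of other cells were lower by 20 h as well, while 23.9% of all genes were called lower. In the mean of the 4 genotypes, 6 of 6 MHC class II genes, 11 of 12 myeloid genes, 5 of 5 genes of plasmacytoid dendritic cells, 4 of 5 NK cell genes, 2 of 2 CD8 T cell genes and 4 of 4 red cell globins were called lower at 20 h than at 0 h. Of 4 plasma cell genes, 2 were called lower and 2 higher. The CD8 T cell and plasmacytoid dendritic cell lists were also read in the sorted cells, with lower medians at 20 h there too. Medians of the CD8 T cell sum at 0 h and 20 h were 34.8 and 17.0 CPM in the sorted and 42.7 and 20.3 CPM in the enriched cells. Those of the plasmacytoid dendritic cell sum were 101 and 72.1 CPM in the sorted and 150 and 48.2 CPM in the enriched cells. The list medians were -4.87 for MHC class II, -7.17 for myeloid and -6.34 for red cell genes on the log2 scale, and no difference between lists was tested. At 4 h the counts called lower were 2 of 6 for MHC class II, 11 of 12 for myeloid, 3 of 5 for plasmacytoid dendritic, 2 of 4 for plasma, 3 of 5 for NK, 1 of 2 for CD8 T and 0 of 4 for red cell genes. Of all genes, 15.4% were called lower at 4 h. Between the experiments at 0 h, 5 of 6 MHC class II, 10 of 12 myeloid, 3 of 5 plasmacytoid dendritic, 2 of 4 plasma, 4 of 5 NK, 1 of 2 CD8 T and 4 of 4 red cell genes were called higher in the enriched WT cells. Of all genes, 4.49% were called higher there. The part of these cells in the fall of the B cell genes was not tested.

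The comparison of the enriched with the sorted WT cells asked how much of the B cell signal was there after either purification. The WT libraries of both tables were fitted together, and the contrast joins the purification, the mice and the experiment, which cannot be told apart. Lat itself differed between these WT cells, with 735 to 824 CPM in the enriched and 222 to 313 CPM in the sorted cells at 0 h. At 0 h all 8 members were called higher in the enriched cells, beside 4.49% of the 29638 genes tested, and over all genotypes the 12 enriched libraries lay above the 6 sorted ones for all 8.

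Pooled over the 3 WT libraries of each side, the ratio at 0 h was largest for the genes with almost no read in the sorted cells. Pax5 had 3538 reads against 0, at least 906-fold higher. Ms4a1 had 7758 against 2, a ratio of 2981 (95% exact interval 825 to 24620), and Cd180 1228 against 1, a ratio of 944 (169 to 37306). Cd22 had 2545 against 6, a ratio of 326 (150 to 889).

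The other 4 members had reads in each sorted WT group at 0 h, so their ratios were better bounded. Syk was 122-fold higher (82.8 to 189), Cd79a 84.0-fold (65.4 to 110) and Ly6d 81.8-fold (62.6 to 109). WT library 3 held 4935 of the 6775 pooled enriched reads of Cd79a. Without library 3 the fitted log2 fold changes went from 6.28 to 5.36 for Cd79a, from 6.21 to 5.15 for Ly6d and from 8.15 to 7.40 for Cd22. Cd79b was 27.0-fold higher (23.8 to 30.8), the smallest ratio of the 8. Its log2 fold change in the fit was 4.62 (SE 0.22, adjusted p = 5.62e-95), and without library 3 it was 3.55.

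At 4 h all 8 were again called higher in the enriched cells (3.02% of all genes), and the 12 enriched libraries again lay above the 6 sorted ones for all 8. The ratio for Cd79b grew to 112 (75.5 to 173), since its level in the sorted WT cells fell to 25 reads from 246, and its fitted log2 fold change was 6.93, or 6.08 without library 3. The ratio for Cd79a was 25.8 (19.0 to 35.9), for Ly6d 47.6 (30.4 to 79.4), for Syk 83.9 (46.8 to 169) and for Cd22 80.1 (21.9 to 666, with 2 reads in the sorted cells). Ms4a1, Pax5 and Cd180 had no read in the 3 sorted WT libraries and were at least 391-fold, 323-fold and 39.7-fold higher.

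At 20 h Ms4a1 was the 1 member called higher, beside 0.432% of all genes, with 1, 3 and 17 reads in the enriched WT libraries against none in the sorted ones, at least 5.52-fold higher. That call rested on library 3 and on the tool: DESeq2 and edgeR's filter on low counts called 0 members, and without library 3 Ms4a1 was not called. Cd79b pointed the other way, with 1.58, 1.44 and 2.05 CPM in the enriched against 2.86, 3.78 and 3.4 CPM in the sorted WT cells, a pooled ratio of 0.497 (0.402 to 0.612) and a log2 change of -0.93 (SE 0.23, adjusted p = 0.00358), under the fold threshold. Without library 3 it passed at -1.07, and with DESeq2, with the filter on low counts and without library 1 or 2 its adjusted p was over 0.05.

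The remaining 6 did not pass at 20 h. The ratios of Cd79a, 0.789 (0.378 to 1.64), and Ly6d, 0.891 (0.658 to 1.21), had intervals on both sides of 1, and that of Syk was 2.84 (1.02 to 9.78) on 18 against 5 reads. Cd180 had 2 reads on each side. Pax5 was at least 1.84-fold and Cd22 at least 1.31-fold higher, on 7 and 5 reads against none. The median fitted log2 fold change of the 8 was 7.49 at 0 h, 6.69 at 4 h and 0.72 at 20 h, and with genes at no read set to their bounds it was 7.49, 6.32 and 0.16, while that of all genes was 0.00 at each time.

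**Figure D5:**
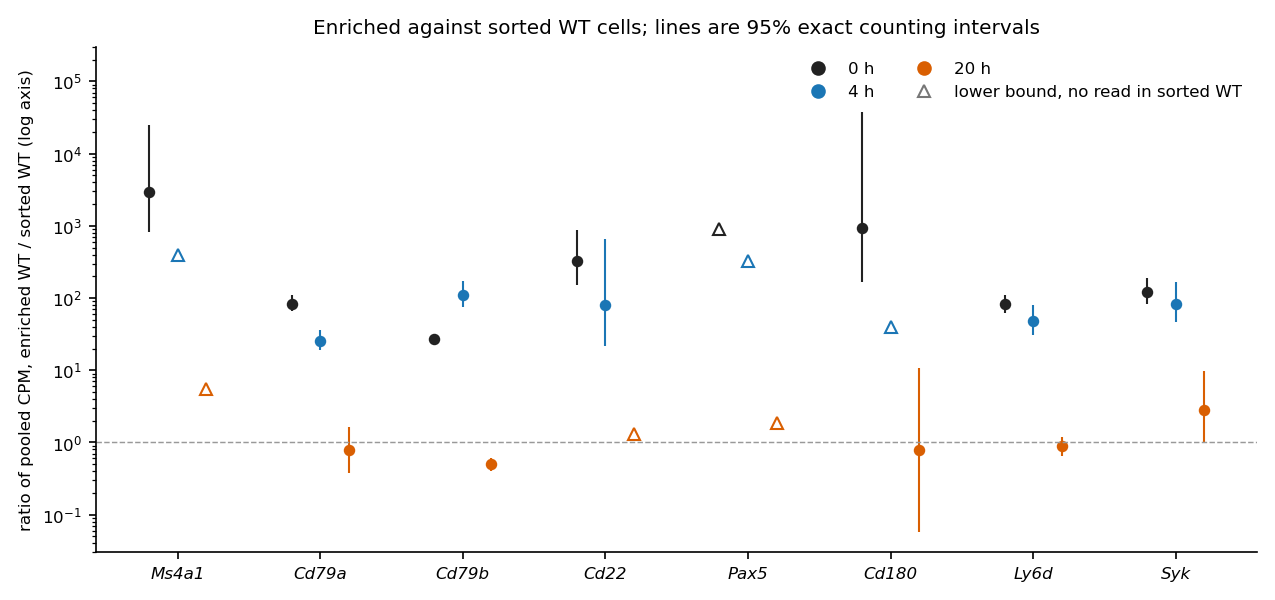
Ratio of the enriched to the sorted WT cells for each B cell gene (pooled counts of 3 libraries per side over library totals, logarithmic axis) at 0 h, 4 h and 20 h, with 95% exact intervals as bars and lower bounds where the sorted cells had no read. At 0 h and 4 h all 8 lie above 20, and at 20 h Cd79b lies below 1 and 3 genes have intervals that include 1 on both sides.

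In the sorted cells themselves the members split into 2 sets. Ms4a1, Pax5 and Cd180 were at or under 4 reads in every library of every time, with 6, 4 and 3 reads over all 18 libraries. Cd22 had 16 reads over the 18 libraries, 8 of them in Lat-/- library 3 of 0 h. Cd79a, Cd79b, Ly6d and Syk were read in all 6 libraries of 0 h, at 0.366 to 1.05, 1.15 to 4.02, 0.231 to 0.977 and 0.0923 to 0.476 CPM. The summed level was 2.40 to 6.58 CPM at 0 h, 0.516 to 1.72 CPM at 4 h and 1.52 to 5.39 CPM at 20 h.

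Cd79b moved the most in the sorted WT cells, down and then back. WT libraries held 2.14, 3.78 and 4.02 CPM at 0 h, 0.375, 0.241 and 0.351 CPM at 4 h, and 2.86, 3.78 and 3.4 CPM at 20 h, so that all libraries of 4 h lay below those of both other times. It was the 1 member called lower at 4 h (9.29% of all genes), with a log2 change of -3.11 (SE 0.48, adjusted p = 8.21e-10). Against 4 h it was called higher at 20 h, with 3.15 (SE 0.48, adjusted p = 5.30e-10), and so was Ly6d, with 2.06 (SE 0.65, adjusted p = 0.00626), beside 7.9% of all genes, though not without replicate 2. Against 0 h, Cd79b at 20 h had a log2 change of 0.05 (SE 0.40), and the pooled ratio was 1.01 (0.842 to 1.21).

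The enriched and the sorted time courses were not tested against each other. Cd79a was the 1 member called lower at 20 h than at 0 h in the sorted WT cells (12.7% of all genes), with 1.05, 0.515 and 0.940 CPM at 0 h and 0.268, 0.187 and 0.279 CPM at 20 h, and it was not called without replicate 1 or without replicate 3. Ly6d held 0.462, 0.729 and 0.977 CPM at 0 h, 0.333, 0.120 and 0.281 CPM at 4 h and 1.43, 1.35 and 0.791 CPM at 20 h.

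In Lat-/- cells, which lack the adaptor that carries the signal of the T cell receptor onward, 3 members were called lower at 4 h (3.62% of all genes). Cd79b went from 1.15, 1.75 and 2.04 CPM to 0.0793, 0.225 and 0.373 CPM (log2 fold change -2.83, SE 0.53, adjusted p = 2.56e-06). Ly6d went from 35 reads over 3 libraries to 3, a ratio of 0.0887 (0.0175 to 0.281), and Syk from 18 reads to none, at least 5.80-fold lower. Without replicate 1 or without replicate 3, Cd79b was the 1 member still called. At 20 h, 2 members were called lower than at 0 h (2.07%), Cd79b with a log2 change of -1.32 (SE 0.45, adjusted p = 0.0377) and Syk with 1 read against 18, a ratio of 0.05 (0.0012 to 0.317), and neither was called without replicate 1, without replicate 2 or without replicate 3.

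Between 4 h and 20 h, edgeR called 0 members in Lat-/- cells (4.1% of all genes in either direction, 1 member at unadjusted p under 0.05), and DESeq2 called Cd79b higher. Over the mean of both genotypes, Cd79b, Ly6d and Syk were called lower at 4 h (7.03%), and Cd22 and Syk at 20 h (7.29%). The call of Cd22 rested on 14 reads at 0 h and none at 20 h. Without replicate 3 neither was called, and without replicate 1 Syk alone was.

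Between WT and Lat-/- cells, 0, 1 and 3 of the 8 members were called at 0 h, 4 h and 20 h. At 0 h edgeR called 0 members (0.961% of all genes in either direction) and DESeq2 0, with 1 at unadjusted p under 0.05 in each. That was Cd79b in edgeR, with 107 reads in Lat-/- against 246 in WT cells, a ratio of 0.502 (0.396 to 0.632). At 4 h Syk was called lower in Lat-/- cells (6.23%), with no read against 11, at least 2.92-fold lower, and it was not called in a fit of the compared groups alone, with the filter on low counts, or without any 1 of replicates 1, 2 and 3.

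At 20 h, Cd79b and Ly6d were called lower in Lat-/- cells (12.3% of all genes) and Cd79a higher (12.1%). Cd79b held 0.659, 0.686 and 0.552 CPM in Lat-/- cells against 2.86, 3.78 and 3.4 CPM in WT cells, with no overlap and a log2 change of -2.33 (SE 0.45, adjusted p = 1.00e-06). Ly6d held 0.101, 0.0722 and 0.297 CPM against 1.43, 1.35 and 0.791 CPM, with -2.84 (SE 0.69, adjusted p = 0.000179). Cd79a ran the other way, with 1.01, 0.758 and 0.722 CPM against 0.268, 0.187 and 0.279 CPM and a log2 change of 1.81 (SE 0.63, adjusted p = 0.0141), not called without replicate 1. Cd79b and Cd79a thus stood on opposite sides of WT, each with no overlap between 3 and 3 libraries, at levels of under 4 CPM. Cd79a rested on 58 reads in Lat-/- against 17 in WT cells. The 1 of 8 members called higher stands near the share of all genes called higher.

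The responses of the genotypes were compared directly by the difference of their log2 fold changes, a contrast chosen after the data were seen. For the response from 0 h to 4 h, edgeR called 0 members (8.71% of all genes), 1 at unadjusted p under 0.05, and DESeq2 called 0. For that from 0 h to 20 h, 2 were called (19.5%): Cd79a with 2.38 higher in Lat-/- cells (SE 0.86, adjusted p = 0.0243) and Ly6d with 2.45 lower (log2 difference -2.45, SE 0.93, adjusted p = 0.0337). Without replicate 1 neither was called, without replicate 2 Cd79a alone and without replicate 3 Ly6d alone. The 2 of 8 members stand near the share of all genes called in this contrast.

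Among the enriched cells, the knockouts were compared with WT to see whether the B cell signal went with the genotype. At 0 h in Cd5-/- cells, 4 members were called lower than in WT (0.0557% of all genes, or 18 genes in all). Pax5 had 9.11, 15.8 and 9.10 CPM against 24.0, 17.0 and 60.3 CPM in WT cells, with a log2 difference of -1.59 (SE 0.32, adjusted p = 0.0290). Ly6d had 11.5, 16.3 and 14.9 against 26.9, 16.5 and 114 CPM, with -1.90 (SE 0.40, adjusted p = 0.0290). Cd79a and Syk were called with -1.65 and -1.40, and the 4 others, at -1.39 to -1.71, had adjusted p of 0.0594 to 0.177.

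These calls turned on single libraries. With the doubted libraries left out (library 2 of 0 h labelled Cd5-/- and that labelled Cd6-/-) all 8 were called, and all 8 without replicate 1 or without replicate 2, but 0 without replicate 3, the number of the WT library with the highest signal. There the log2 differences of the 8 were -0.41 to -0.71, among them -0.71 for Pax5 and -0.62 for Ly6d. With DESeq2, with edgeR's filter on low counts, with RLE factors and with plain library totals the count was 0. For the alternative fits, here and elsewhere, the share of all genes called is not given. At 4 h, Cd180 and Syk were called lower in Cd5-/- cells (0.0465%), Cd180 with 0.217, 0.305 and 0.355 CPM against 1.31, 1.11 and 2.38 CPM (log2 fold change -2.44, SE 0.45, adjusted p = 0.00338). Syk was not called without replicate 3. Of the alternatives run, only edgeR's filter on low counts ended the call of Cd180, and the summed level of the 8 at 4 h was 34.6, 37.2 and 48.1 CPM in Cd5-/- and 78.7, 63.8 and 192 CPM in WT cells, with no overlap.

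With the doubted libraries left out all 8 were called at 4 h too, as without replicate 1 or without replicate 2, and 3 without replicate 3. At 20 h edgeR called 0 members in Cd5-/- cells (0.0186% of all genes), with 0 at unadjusted p under 0.05 and 0 called by DESeq2, while without replicate 2 Ms4a1 was called. In Cd6-/- cells edgeR called 0 members at 0 h (0%), 4 h (0.0031%) and 20 h (0.0186%), with 4, 0 and 0 at unadjusted p under 0.05, and DESeq2 called 0 at each. Without replicate 1, Ms4a1 and Pax5 were called lower at 0 h in Cd6-/- cells. In Cd5-/-Cd6-/- cells edgeR called 0 at 0 h (0.0248%), 4 h (0.0434%) and 20 h (0.0434%), with 0 at unadjusted p under 0.05 and 0 called by DESeq2 at each. Without replicate 2, 4 members (Ms4a1, Cd79a, Cd79b and Ly6d) were called lower there at 0 h. Summed levels of the 8 at 0 h were 206 to 301 CPM in Cd5-/-Cd6-/- and 157 to 748 CPM in WT cells.

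The fall by 20 h was not shown to differ between genotypes. For the difference of each knockout's 20 h response from that of WT, edgeR called 0 members in the Cd5-/- (0.0031% of all genes), the Cd6-/- (0.0031%) and the double knockout cells (0%), with 1, 2 and 0 at unadjusted p under 0.05, and DESeq2 called 0 in each. In Cd6-/- cells Ms4a1 had the largest of these differences, 2.26 (SE 0.86, adjusted p = 1.00), with 0.062, 0.452 and 1.42 CPM at 20 h against 0.0282, 0.108 and 0.644 CPM in WT cells, which overlap. It was called without replicate 1 and without replicate 2. The summed level at 20 h was 1.65 to 2.55 CPM in Cd5-/-, 2.11 to 2.97 in Cd5-/-Cd6-/-, 2.82 to 5.16 in WT and 2.84 to 5.91 CPM in Cd6-/- cells.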

How the data were processed

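RNA of untreated and stimulated CD4+ T cells was sequenced from poly-A libraries (TruSeq Stranded mRNA, 250 ng of total RNA, 12 PCR cycles). Per the study's methods and the submitters' processing notes, reads were made with bcl2fastq 2.17.1.14, filtered with DimerRemover, aligned with STAR and assigned to genes with featureCounts. The authors deposited raw counts, 1 table per experiment, with no molecular identifiers. Gene names and positions came from the GRCm38 annotation.

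Levels are CPM of the library total. Genes with at least 1 read were tested with edgeR 4.0.16 (quasi-likelihood test, TMM factors, R 4.3.3), 32290 in the enriched, 27780 in the sorted and 29638 in the joined WT table, with p-values adjusted by Benjamini-Hochberg over all of them. Ratios with exact 95% intervals pool counts, and a group with no read was set to 3 counts. DESeq2 1.42.0, other scalings, a filter on low counts, the compared groups alone, a replicate block, and fits without single replicates or without the doubted libraries were alternatives. Contrasts of the Lat response and of 20 h against 4 h in sorted cells were added after seeing the data. The fits were tested on simulated counts.

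The 8 genes and all lists were chosen with earlier results of these data known. Named genes were the 8, the 4 other B cell genes with the highest 0 h mean and the 10 genes most like the 8, of which 1 is not reported here. Levels were computed with Python 3.11.15 and numpy 2.4.6.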

Additional observations from a re-analysis of the deposited data

Results flagged for a closer look

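In the sorted cells, 2 of the 8 genes responded differently in Lat-/- and WT cells from 0 h to 20 h by edgeR's interaction test, which called 19.5% of all genes, a share near that of the 8. For Cd79a the difference of the log2 fold changes (Lat-/- minus WT) was 2.38, with a pooled ratio of 20 h to 0 h of 1.49 (0.964 to 2.34) in Lat-/- and 0.286 (0.157 to 0.496) in WT cells. For Ly6d the difference was -2.45, with ratios of 0.283 (0.130 to 0.570) in Lat-/- and 1.64 (1.16 to 2.36) in WT cells. Both genes were at 1.43 CPM or less in every sorted library, and each call was lost without some replicates.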

How the results depend on the processing

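In the enriched cells all 8 members stayed called lower at 20 h in the mean of the genotypes under each alternative run, as did all 8 in the enriched against the sorted WT cells at 0 h and 4 h. For the WT cells of both experiments at 20 h (1 member called), DESeq2 and filterByExpr gave 0 and the adjusted p alone 2. For the fall at 4 h in Cd5-/-Cd6-/- cells (5), DESeq2 and filterByExpr gave 2, and in Cd6-/- cells (5) leaving out single replicates gave 3 to 5. For Cd5-/- against WT at 0 h (4), DESeq2, RLE factors, filterByExpr and library totals gave 0, the replicate block 7, leaving out the doubted libraries 8 and leaving out single replicates 0 to 8. For the same at 4 h (2), DESeq2, RLE factors and library totals gave 1, filterByExpr 0, the compared groups alone 4, the replicate block 7, leaving out the doubted libraries 8 and single replicates 3 to 8. Leaving out single replicates gave 0 to 1 for Cd5-/- against WT at 20 h, 0 to 2 for Cd6-/- at 0 h, 0 to 4 for Cd5-/-Cd6-/- at 0 h and 0 to 1 for the 20 h response of Cd6-/-, all with 0 called in the full data.

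In the sorted cells, Lat-/- against WT at 4 h (1) gave 0 with the compared groups alone, 2 with the replicate block and 0 to 1 without single replicates. Lat-/- at 20 h against 0 h (2) gave 1 with DESeq2, the compared groups alone, filterByExpr and the replicate block, and 0 without any single replicate, with no adjusted p for Syk from DESeq2. Lat-/- at 20 h against 4 h (0) gave 1 with DESeq2, filterByExpr and the replicate block and 0 to 1 without single replicates. The mean of both genotypes at 20 h (2) gave 1 with DESeq2 and the replicate block, 0 with filterByExpr and 0 to 2 without single replicates. Without single replicates, the 20 h response of Lat-/- against WT (2) gave 0 to 1, Lat-/- at 4 h (3) 1 to 3, WT at 20 h against 0 h (1) 0 to 1 and WT at 20 h against 4 h (2) 1 to 2. The cause was not tested for these changes.

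Replicate numbers are shared between groups without a stated pairing. Same-numbered libraries deviated together with a mean r of 0.229 in the enriched (145 of 198 pairs over 0.1) and 0.0705 in the sorted cells (15 of 45), so the replicate block was kept as an alternative. DESeq2 gave no adjusted p for 4 or 5 members in several sorted contrasts. Depth limits Ms4a1, Pax5, Cd180 and Cd22 in the sorted cells, where at most 8 reads stood in a library.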
